A study of Saccharomyces cerevisiae with 4 samples.

Results

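The genes described here are those of glycolysis, alcoholic fermentation and the pentose phosphate pathway of *S. cerevisiae*, 48 genes listed by symbol and grouped by their known roles, with earlier results of these data known. Of the 48, 47 were each read by 1 probe set that was not marked as shared with other genes, out of 5449 yeast genes with a probe set. No probe set was paired with *TDH2* in the probe table used, and this gene is named only. Transcript levels were measured on 4 Affymetrix Yeast Genome 2.0 arrays, 1 of cells with the empty plasmid pCM189 (WT) and 3 of cells expressing FLAG-tagged human RECQL5 from the tet promoter of that plasmid without doxycycline (RECQL5 replicates 1, 2 and 3). Both groups were haploid W303-1A cells of mating type a that carry the mutant alleles of *URA3*, *TRP1*, *LEU2*, *HIS3*, *CAN1* and *ADE2* of that strain, taken in exponential growth in minimal medium with 2% glucose and no uracil. RECQL5 is a human DNA helicase of the RecQ family that binds RNA polymerase II, and the comparison asks how its expression alters yeast transcript levels. The plasmid name is that of the labels, and a figure legend of the study gives another name for its empty tet plasmid. The study's methods call the medium selective synthetic complete with 2% glucose. The labels call the samples of a group biological replicates. WT was measured once, so each test sets the distance of 1 culture from the RECQL5 cultures against the spread among those 3, and a trait of the WT culture alone cannot be told apart from an effect of RECQL5. The study's text mentions a standardization of its control array with published arrays, and it stays unknown here if the WT values used had already gone through it. Values are log2 levels from RMA, which corrects background, makes the distributions of the arrays alike and sums the probes of a probe set, so a difference of 1 is a doubling.

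Glycolysis converts glucose to pyruvate, and in glucose medium yeast sends most pyruvate through pyruvate decarboxylase and alcohol dehydrogenase to ethanol even when oxygen is present. The pentose phosphate pathway branches off at glucose phosphate and yields NADPH and ribose phosphate, the sugar of nucleotides. Many steps of these pathways are encoded by several genes. Those called major below carry most of the flux during growth on glucose. The others, called minor, are mostly known from growth without glucose, from stress or from other compartments and side reactions. *TDH2* and *TDH3* are both classed as major, and so are *PFK1* and *PFK2*, which encode subunits of the same enzyme and have no minor partner here. The members fall into 16 major genes, 21 minor genes, 7 genes that alone encode their step, 2 genes for the enzyme that makes a regulator of phosphofructokinase and 2 genes of gluconeogenesis.

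Falls of at least 1.5-fold in RECQL5 were found for minor isoenzyme genes only, of the members tested. Among 15 tested minor genes 8 fell, namely *ADH4*, *ADH5*, *SOL4*, *PYK2*, *GLK1*, *SFA1*, *ALD4* and *TDH1*, by 1.57-fold to 3.71-fold, and 0 rose. Among 15 tested major genes 0 fell and 0 rose by that much. Of these 15, 12 lay below WT and 3 above it, the same split as among the tested minor genes. The classes thus differed in the size of the change and not in how many genes lay below WT. The members that rose were *RKI1*, the ribose phosphate isomerase gene, and *PFK26*, which encodes a kinase that makes the activator of phosphofructokinase. A gene was called where limma gave a Benjamini-Hochberg adjusted p of at most 0.1 over all tested genes and a change of at least 1.5-fold. Genes were tested where the 4 arrays averaged log2(600), 9.23, or more. This left 4128 genes and 39 members, of which 8 (20.5%) fell and 2 (5.13%) rose. Over all tested genes 7.80% were called lower, 9.59% higher and 17.4% either way. The median log2 change was -0.65 over tested minor genes, -0.09 over major genes and -0.13 over the 7 single genes, beside 0.02 over all tested genes. *SOL4* passed the level filter through its WT value alone, so that it could only be lower. With the filter on every array, 7 of 14 tested minor genes fell, beside 7.42% of all tested genes, and the minor median was -0.59. These counts describe the classes, and the difference between classes was not tested.

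**Figure D1:**
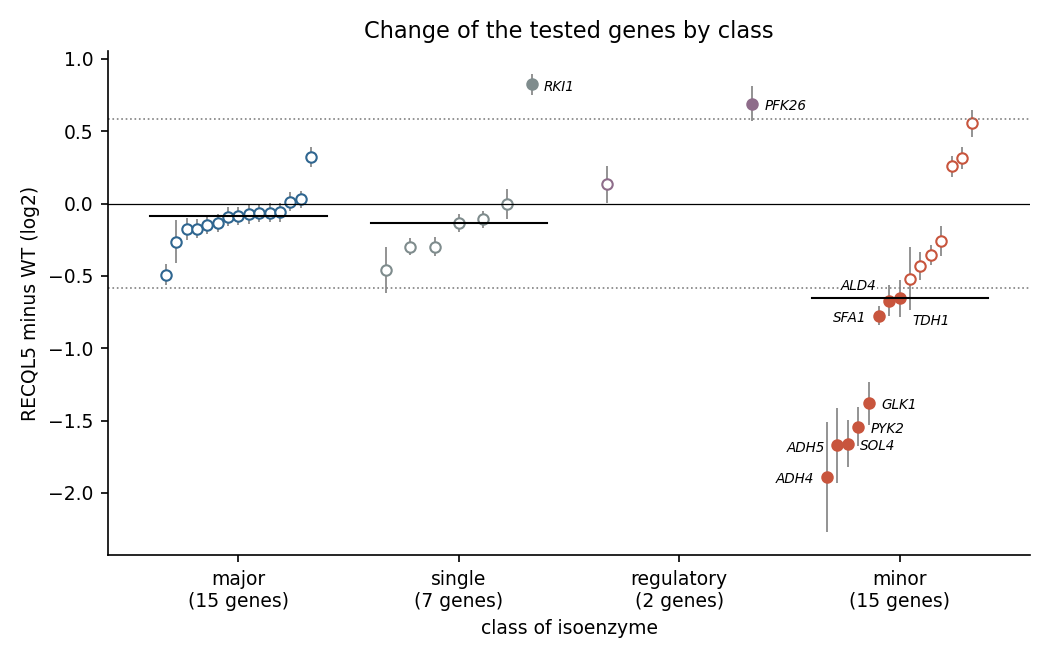
Log2 change (RECQL5 minus WT) of the 39 tested members by class, with the standard error of the fit as a bar, the median of classes with over 2 genes as a black line and the 1.5-fold limits dotted. Filled symbols are called genes. All 15 major genes lie between -0.49 and 0.32, and 8 of 15 minor genes lie below the lower limit. Among these 8, *SOL4* passed the level filter through its WT value alone.

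The first step of glycolysis, the phosphorylation of glucose, is shared by 3 enzymes. *GLK1* (YCL040W), the glucokinase gene, read 13.51 in WT and 12.34, 12.11 and 11.95 in RECQL5. All 3 RECQL5 values lay more than 1 log2 unit below WT. The WT level was 2.60-fold that of RECQL5, a log2 change of -1.38 ± 0.15 (SE, adjusted p = 0.00159). *HXK1*, which encodes a hexokinase known to be raised when glucose runs low, read 13.12 in WT and 12.87, 12.65 and 12.28 in RECQL5. Its change of -0.52 ± 0.22 stayed under 1.5-fold, and the RECQL5 arrays differed among themselves by more than the highest of them differed from WT. *HXK2*, the gene of the main hexokinase on glucose, read 12.83 in WT and 13.09, 13.18 and 13.19 in RECQL5, a change of 0.32 ± 0.07 (adjusted p = 0.0137) that was also under 1.5-fold and in the other direction.

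The middle of glycolysis is encoded by some of the most abundant transcripts of the cell. The phosphoglucose isomerase gene *PGI1* read 13.92 in WT and 13.62, 13.66 and 13.58 in RECQL5 (-0.30 ± 0.07). *PFK1* (-0.17) and *PFK2* (-0.18), the subunit genes of phosphofructokinase, the aldolase gene *FBA1* (-0.11), the triose phosphate isomerase gene *TPI1* (-0.13) and the phosphoglycerate kinase gene *PGK1* (-0.30) were all below WT by less than 1.5-fold. None of these 6 was called. *PFK26* (YIL107C) differed from them. It read 9.60 in WT and 10.44, 10.14 and 10.28 in RECQL5, without overlap, and rose 1.61-fold (0.69 ± 0.12, adjusted p = 0.00655). Its paralog *PFK27* read 10.18 in WT and 10.24, 10.50 and 10.20 in RECQL5, so that 2 of the 3 RECQL5 values were close to WT (0.13 ± 0.13, adjusted p = 0.421).

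Glyceraldehyde phosphate dehydrogenase, the oxidation step of glycolysis, was read by *TDH3* and *TDH1*. *TDH3*, the main isoenzyme gene, had the highest mean level of all tested genes, with 14.79 in WT and 14.72, 14.72 and 14.75 in RECQL5 (-0.06 ± 0.06). *TDH1* (YJL052W), the isoenzyme gene known from slow growth and stress, read 14.26 in WT and 13.68, 13.73 and 13.43 in RECQL5. It fell 1.57-fold (-0.65 ± 0.13, adjusted p = 0.00909), just past the fold limit, and by -0.56, under the limit, without RECQL5 replicate 3. The array also holds control probe sets named for *TDH1*, which were not part of the test. The control set for the 3' part read 14.35 in WT and 13.79, 13.79 and 13.53 in RECQL5, a difference of -0.65. The set for the 5' part read 14.25 in WT and 13.26, 13.33 and 12.76 in RECQL5, a difference of -1.14. The set for the middle of the gene read 13.63 in WT and 12.11, 12.36 and 11.64 in RECQL5, a difference of -1.59. A set for the middle that is marked as shared with other genes read 14.56 in WT and 14.42, 14.43 and 14.45 in RECQL5, a difference of -0.13. All 5 probe sets were lower on each RECQL5 array, and the size of the difference depended on the probe set, with RECQL5 replicate 3 the lowest array on the 4 sets that are not marked as shared.

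**Figure D2:**
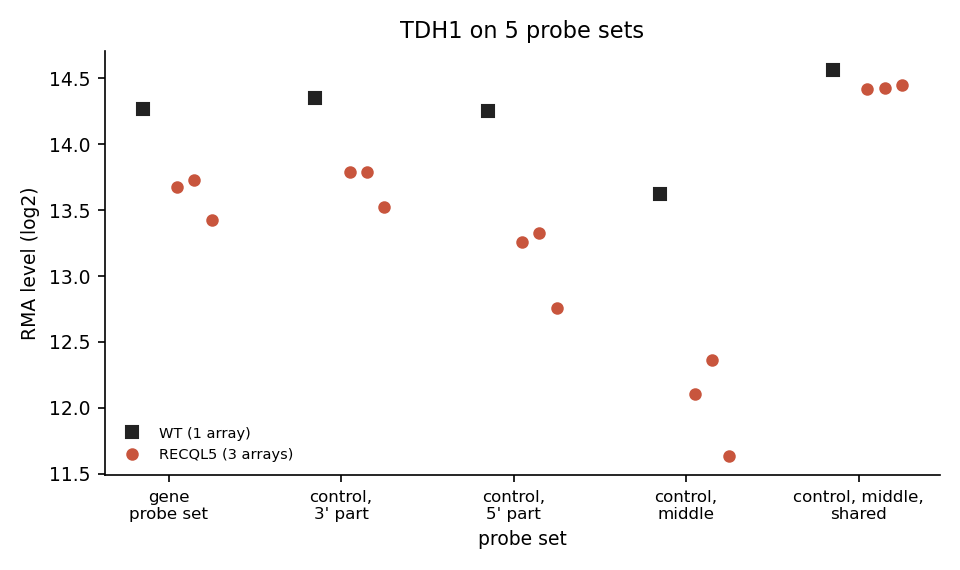
RMA level (log2) of *TDH1* on the probe set used for the gene and on 4 control probe sets, with the WT array as a square and the 3 RECQL5 arrays as circles. The gap between WT and RECQL5 runs from -0.13 on the shared set to -1.59 on the set for the middle of the gene.

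In the lower part of glycolysis a minor gene that fell again stood beside a major gene that was not called, at pyruvate kinase. *PYK2* (YOR347C), the glucose-repressed pyruvate kinase gene, read 11.42 in WT and 10.08, 9.82 and 9.75 in RECQL5. It fell 2.91-fold (-1.54 ± 0.13, adjusted p = 0.00105), with an SD of 0.17 over the RECQL5 arrays. *CDC19*, the main pyruvate kinase gene, read 14.59 in WT and 14.50, 14.51 and 14.52 in RECQL5 (-0.09 ± 0.06). Its mean of 14.53 lay in the top range of level described below, where few genes of any kind were called. Of the enolase genes, *ENO2*, the one raised on glucose, differed by -0.15 ± 0.06 and *ENO1* by -0.36 ± 0.07, neither past 1.5-fold. The mutase gene *GPM1* differed by -0.13 ± 0.06. Its homologs *GPM2* and *GPM3*, which are not known to encode working mutases, went apart. *GPM3* read 9.50 in WT and 9.85, 9.87 and 9.74 in RECQL5 (0.32 ± 0.08, under 1.5-fold). *GPM2* read 10.69 in WT and 8.89, 8.73 and 8.28 in RECQL5, a difference of -2.05 and the lowest of all members, but its mean over the 4 arrays lay below the level filter, so it has no test in the comparison used here.

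Pyruvate decarboxylase and alcohol dehydrogenase complete fermentation. *PDC1*, the main decarboxylase gene, read 14.51 in WT and 14.49, 14.55 and 14.54 in RECQL5 (0.01 ± 0.06), and its WT value fell within the RECQL5 range. *PDC5*, a minor decarboxylase gene known to be raised when *PDC1* is lost, read 9.83 in WT and 10.29, 10.50 and 10.38 in RECQL5 (0.55 ± 0.10, adjusted p = 0.00608), slightly under 1.5-fold. It passed that limit without RECQL5 replicate 1 (0.60). *PDC6* lay below the level filter, at 7.36 in WT and 6.96 to 7.72 in RECQL5.

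Alcohol dehydrogenase held 3 of the 8 members that fell. *ADH1*, the gene of the main fermentative enzyme, read 14.46 in WT and 14.44, 14.39 and 14.34 in RECQL5 (-0.07 ± 0.07, adjusted p = 0.434). *ADH4* (YGL256W), whose enzyme belongs to a different protein family and whose transcript is known to rise when zinc is scarce, read 13.45 in WT and 10.96, 11.75 and 11.98 in RECQL5. This was the largest fall among tested members (3.71-fold, -1.89 ± 0.38, adjusted p = 0.0103) and also the one with the widest spread, with an SD of 0.54 over the 3 RECQL5 arrays and replicate 1 the lowest. *ADH5* (YBR145W), a minor cytosolic isoenzyme gene, read 12.74 in WT and 11.24, 11.31 and 10.65 in RECQL5, with replicate 3 the lowest. It fell 3.18-fold (-1.67 ± 0.26, adjusted p = 0.00459). *SFA1* (YDL168W), which encodes an enzyme that acts on long-chain alcohols and on the glutathione adduct of formaldehyde, read 11.99 in WT and 11.24, 11.17 and 11.23 in RECQL5. The RECQL5 values were nearly equal (SD 0.04), and the fall was 1.71-fold (-0.77 ± 0.06, adjusted p = 0.00104). *ADH3*, the mitochondrial isoenzyme gene, differed by -0.26 ± 0.10, under 1.5-fold. *ADH2*, the ethanol-oxidizing gene that glucose represses, stayed below the level filter on every array, with 8.18 in WT and 7.88 to 8.08 in RECQL5.

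**Figure D3:**
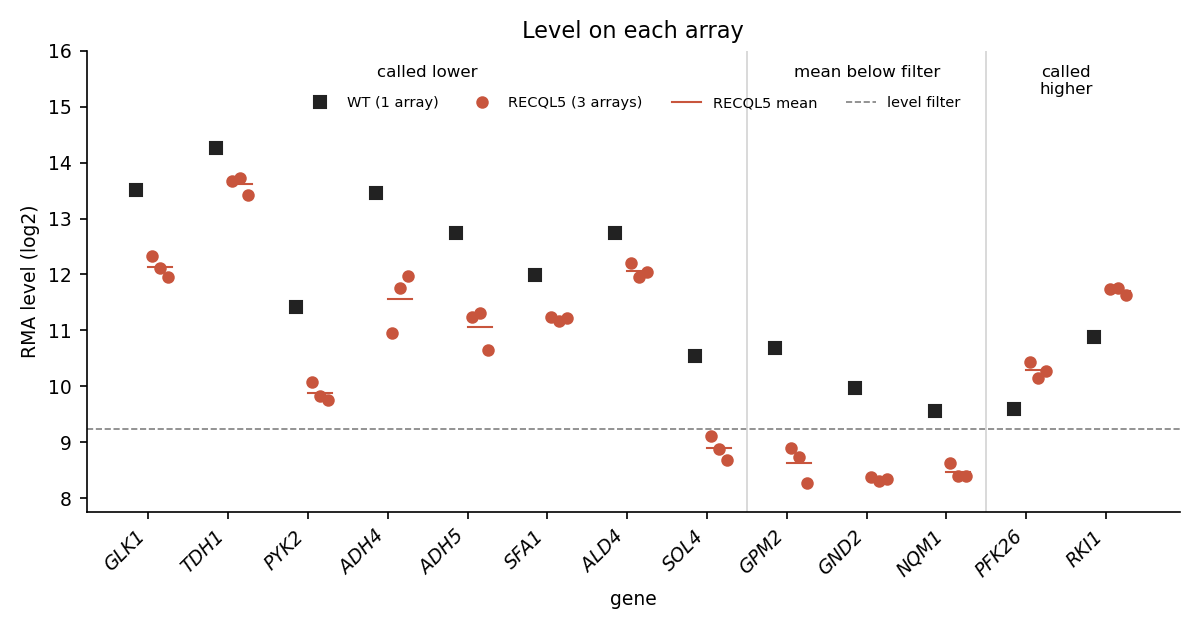
RMA level (log2) on each array of the 8 members called lower, 3 members whose mean lies below the level filter (dashed, 9.23) and the 2 members called higher. Squares are the WT array, circles the 3 RECQL5 arrays and lines their mean. The WT array lies outside the RECQL5 range in all 13 genes, which were chosen by their calls or their level, and in 86.1% of all tested genes.

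Acetaldehyde not reduced to ethanol is oxidized to acetate and activated to acetyl-CoA. *ALD4* (YOR374W), the gene of a mitochondrial aldehyde dehydrogenase that glucose represses, read 12.73 in WT and 12.20, 11.95 and 12.04 in RECQL5, a fall of 1.59-fold (-0.67 ± 0.11, adjusted p = 0.00473). *ALD6*, the main cytosolic gene, read 12.99 in WT and 12.77, 12.52 and 12.90 in RECQL5 (-0.26 ± 0.15, adjusted p = 0.18), and its RECQL5 arrays were spread over a range wider than the gap to WT. *ALD5*, another mitochondrial gene, differed in the opposite direction (0.26 ± 0.07), under 1.5-fold. The acetyl-CoA synthetase gene used on glucose, *ACS2*, differed by -0.06 ± 0.07 and its glucose-repressed partner *ACS1* by -0.43 ± 0.10, and neither passed 1.5-fold. The gluconeogenesis genes *FBP1* (7.51 in WT and 6.85, 6.38 and 6.03 in RECQL5) and *PCK1* (9.12 in WT and 8.86, 8.70 and 8.39 in RECQL5) read below the level filter on every array. *ADH2*, *FBP1* and *PCK1*, all 3 known to be low on glucose, lay below the filter in both groups, with the WT array the highest of the 4 for each. The glucose-repressed genes *ALD4* and *PYK2* read far above the filter in WT, at 12.73 and 11.42. The part of glucose supply in these levels was not tested.

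In the oxidative branch of the pentose phosphate pathway, the first gene, *ZWF1* for glucose phosphate dehydrogenase, read 11.34 in WT and 10.91, 10.65 and 11.07 in RECQL5 (-0.46 ± 0.16, adjusted p = 0.0547, under 1.5-fold). At the next step, *SOL4* (YGR248W), a minor phosphogluconolactonase gene, read 10.55 in WT and 9.11, 8.88 and 8.68 in RECQL5. It fell 3.16-fold (-1.66 ± 0.16, adjusted p = 0.00131). Its 3 RECQL5 values lay below the level filter, so the gene was tested through its WT level and was not tested where every array had to pass. *SOL3*, the main gene of that step, read 12.02 in WT and 11.92, 11.98 and 11.96 in RECQL5 (-0.06 ± 0.06). The phosphogluconate dehydrogenase gene *GND1* showed the smallest spread among RECQL5 arrays after *FBA1* and hardly differed from WT, with 13.16 in WT and 13.18, 13.19 and 13.19 in RECQL5 (0.03 ± 0.06). The minor gene *GND2* read 9.96 in WT and 8.38, 8.31 and 8.34 in RECQL5, a difference of -1.62 with an SD of 0.03 over the RECQL5 arrays. Its mean lay below the level filter.

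In the non-oxidative branch, which interconverts sugar phosphates, *RKI1* (YOR095C) was the member that rose. It read 10.89 in WT and 11.75, 11.75 and 11.64 in RECQL5, 1.77-fold higher (0.82 ± 0.07, adjusted p = 0.00109), and the RECQL5 arrays lay close together. *RPE1*, the epimerase gene that works on the same substrate pool, read 11.90 in WT and 12.03, 11.83 and 11.84 in RECQL5, with WT inside the RECQL5 range. The transketolase gene *TKL1* differed by -0.09 ± 0.06, and its minor partner *TKL2* lay below the filter at 8.34 in WT and 7.62 to 8.25 in RECQL5. *TAL1*, the main transaldolase gene, read 13.76 in WT and 13.22, 13.27 and 13.33 in RECQL5. Its change of -0.49 ± 0.07 (adjusted p = 0.0036) was the largest among major genes and was under 1.5-fold. Its homolog *NQM1* read 9.56 in WT and 8.62, 8.40 and 8.40 in RECQL5, a difference of -1.09, with a mean below the filter.

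*GPM2*, *GND2* and *NQM1* read above 9.23 on the WT array and below it on all RECQL5 arrays. The filter on the mean thus removed them through their low RECQL5 values. A filter on the WT array, or on at least 1 array, would let them in through WT alone, where they could only be lower, so no test is given from it. The other 5 members without a test were *PDC6*, *ADH2*, *TKL2*, *FBP1* and *PCK1*. With no filter on level, which tests all 47 members, *GPM2*, *GND2* and *NQM1* were called lower (adjusted p = 0.0044, 0.00155 and 0.00345). *FBP1* was called lower as well (adjusted p = 0.0411), from levels near the low end of the scale, and 12 of 47 members fell, beside 8.59% of all 5449 genes.

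Within a step, the minor gene can be followed against its major partner on the same array. This was done for 21 pairs, and the value given is the change of the difference minor minus major from WT to RECQL5. The difference was lower on all 3 RECQL5 arrays than in WT for 17 pairs and higher on all 3 for 3 pairs (*GPM3*, *PDC5* and *ALD5*), and *PDC6* was mixed. For levels of single genes, the WT array lay outside the RECQL5 range in 86.1% of all tested genes, above it for 1677 and below it for 1877. No such share was computed for differences between genes, so the pair counts say little by themselves. Several pairs share a major gene, such as *ADH1*, and all use the same WT array, so the pairs are not separate observations. Where the major gene hardly changed, as with *ADH1*, *CDC19* and *TDH3*, the value mostly restates the minor gene's own change. In 6 pairs the minor gene lay below the level filter (*GPM2*, *PDC6*, *ADH2*, *GND2*, *TKL2* and *NQM1*). The difference changed by -1.92 for *GPM2*, -1.82 for *ADH4*, -1.70 for *GLK1*, -1.65 for *GND2*, -1.60 for *ADH5* and *SOL4* and -1.46 for *PYK2*. For *HXK1* the change was -0.84, larger than its own change of -0.52 because *HXK2* went the other way. For *NQM1* it was -0.60, smaller than its own change of -1.09 because *TAL1* was also below WT. For *ALD4* it was -0.41, and the RECQL5 arrays of this pair had an SD of 0.17. In an exact permutation test over the 4 arrays (two-sided), 18 of the 21 pairs gave p = 0.25, the smallest value that 1 array against 3 can give, so no pair could pass 0.05. Partners differ in coding length by a median of 2.64% over the pairs of the 8 genes that fell and by at most 10.9% there (*SFA1*), but *GPM2* and *GPM3* are 25.8% and 22.6% longer than *GPM1*.

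**Figure D4:**
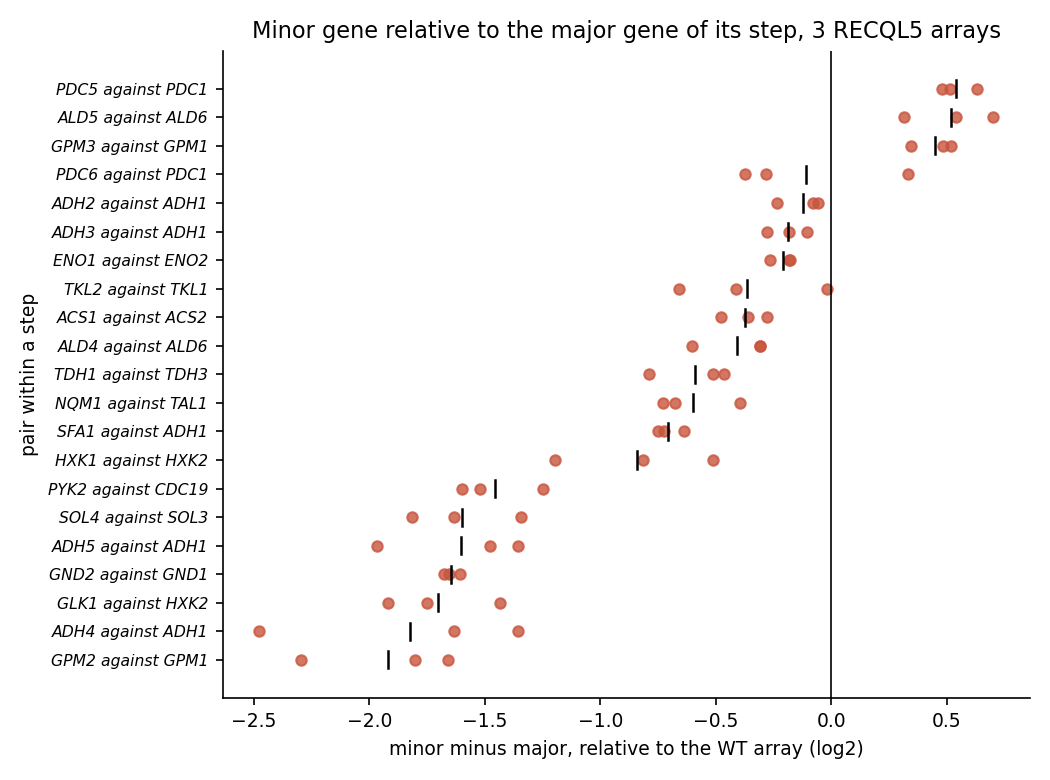
Difference between the minor gene and the major gene of its step on each RECQL5 array, relative to that difference on the WT array (log2), for 21 pairs. Circles are the 3 RECQL5 arrays and black ticks their mean. The circles of 17 pairs all lie left of 0, the WT value, and those of 3 pairs all lie right of it.

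Few genes near the top of the level scale were called, a range that holds several major genes. Of 62 tested genes with a mean of at least 14, 1 was called (1.61%), against 17.3% to 19.7% in the lower ranges of level, and the SD of their changes was 0.24 against 0.44 to 0.50. This top range held 10 members, of which 6 were major genes, 3 were single genes and 1 was the minor gene *ENO1*. Its major genes include *TDH3*, *CDC19* and *ADH1*, the partners of *TDH1*, *PYK2*, *ADH4*, *ADH5* and *SFA1*, which fell. The part of the top range in the small changes of these 10 members, and so in the contrasts with those partners, was not tested. The other 9 major genes, *HXK2*, *PFK1*, *PFK2*, *ALD6*, *ACS2*, *SOL3*, *GND1*, *TKL1* and *TAL1*, had means below 14, and 0 of them was called either, with changes of 0.03 to 0.49 in size.

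**Figure D5:**
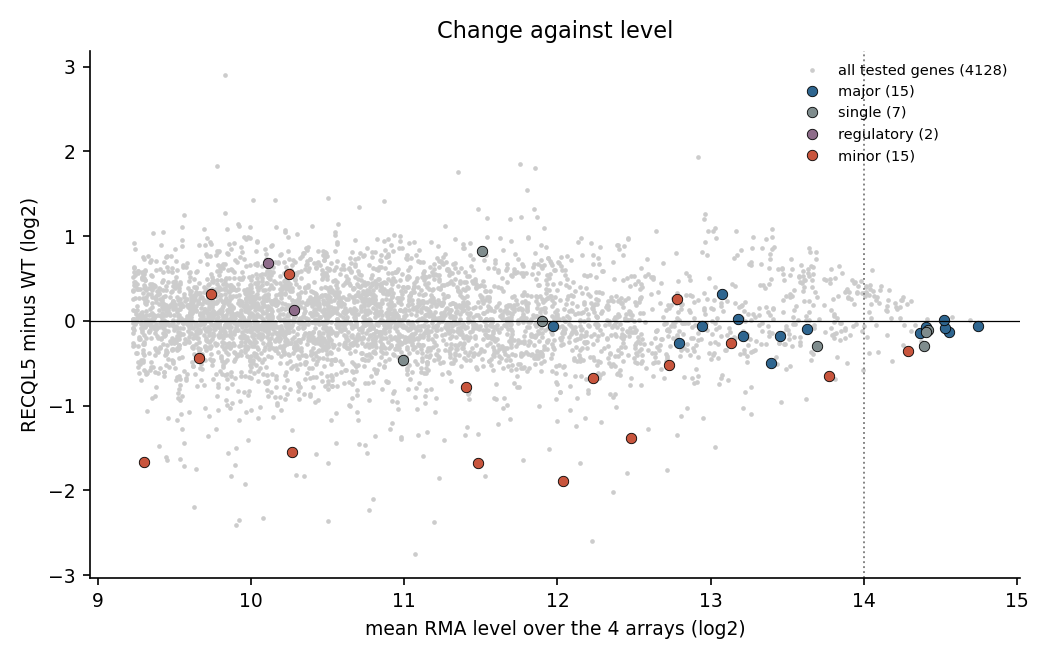
Log2 change (RECQL5 minus WT) against the mean RMA level (log2) of 4128 tested genes (grey) and of the 39 tested members, coloured by class. Right of the dotted line at 14, all genes lie between -0.47 and 0.60.

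On most members the WT array stood apart by a small amount. It lay above all 3 RECQL5 arrays for 29 of the 39 tested members and below all 3 for 8, and *PDC1* and *RPE1* overlapped, but the WT array was outside the RECQL5 range for 86.1% of all tested genes as well. An adjusted p of at most 0.1 with no fold limit was reached by 24 members (61.5%) and by 63.8% of all tested genes. Without regard to direction, neither share sets the members apart from other genes. By direction, WT lay above all 3 RECQL5 arrays for 1677 of the 4128 tested genes and below all 3 for 1877. The members thus leaned to lower values in RECQL5 more than all tested genes did, and this difference was not tested.

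Other genes were counted from lists drawn up with earlier results of these data known. Of 18 tested regulators of glycolytic and carbon source genes, a list that also holds the member *HXK2*, *TYE7*, an activator of glycolytic genes, fell (12.05 in WT and 11.25, 11.36 and 11.04 in RECQL5, -0.84 ± 0.13, adjusted p = 0.00427) and 0 rose, with a list median of 0.06. Of 26 tested enzymes beside the pathways, 9 fell (34.6%) and 2 rose (median -0.37), beside 7.80% lower and 9.59% higher over all tested genes. The largest changes among them were those of the reductase gene *GCY1* (-1.60 ± 0.14), *BDH2* (-1.56 ± 0.24), the phosphoglucomutase gene *PGM2* (-1.08 ± 0.23), the aldose reductase gene *GRE3* (-0.99 ± 0.07), the pyruvate carboxylase gene *PYC1* (-0.93 ± 0.14) and the reductase gene *YPR1* (-0.91 ± 0.07). The 2 that rose were *IDP2* (0.85), for cytosolic isocitrate dehydrogenase, and *PRS1* (0.66), for a synthetase that uses the ribose phosphate made by the *RKI1* enzyme.

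A list of general stress genes under Msn2 and Msn4, outside the members, was counted as well. Of its 25 tested genes 14 fell (56%, beside 7.80% of all tested genes) and 0 rose, with a median of -0.65. The others were not called, among them *SSA3*, which lay above WT (0.20). *PGM2*, *GRE3* and *ALD3* stand in this list and in that of enzymes beside the pathways. The summed linear level of the list, on the log2 scale, was 17.37 in WT and 16.62 to 16.76 in RECQL5. Several members that fell, such as *GLK1*, *TDH1* and *SOL4*, are themselves known from stress. Of 8 tested genes outside the members that glucose represses, *CYB2* fell and *IDP2*, also counted above, rose (median -0.26). Another 11 had means below the filter, with differences from -1.82 (*HXT5*) to 0.60 (*CTA1*). The summed level of this list was 14.63 in WT and 14.20 to 14.45 in RECQL5. The part of stress or of glucose supply in the members' changes was not tested.

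The position of the 10 called members was compared with that of their direct neighbours. The called members lie on 7 chromosomes, and 15 of their neighbouring genes were tested, of which 4 rose and 1 fell, beside 9.59% higher and 7.80% lower over all tested genes. *UGX2*, which diverges from *SFA1*, fell with it (-0.91), and *RPS7A*, a ribosomal protein gene that diverges from *RKI1*, rose with it (0.69). Of the neighbours downstream, *IRC8* beside *TDH1* (0.66), *REV1* beside *PYK2* (0.88) and *NRP1* beside *SFA1* (0.73) rose while the member fell, and the other 7 tested were not called.

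The arrays as a whole bear on these results in a few points. Pearson's r across tested genes was 0.989 to 0.996 between RECQL5 arrays and 0.917 to 0.931 between WT and a RECQL5 array. The median SD over RECQL5 arrays was 0.06 for tested members and 0.06 for all tested genes. The 6 genes of mating type a on a marker list all passed the level filter, with 1 of them, *MFA1*, called lower, and *STE3*, the pheromone receptor gene of the other mating type, read 6.60 to 7.11 on the 4 arrays, below the filter. Human RECQL5 itself was not analysed here.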

How the data were processed

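Affymetrix arrays carry 1 sample each. The authors deposited RMA log2 values per probe set (background correction, quantile normalization, median polish). The labels name RMA and limma without versions. Groups came from sample titles. In 2 of 3 RECQL5 samples the source name spells the construct with another number, which titles and strain fields do not. Of 10928 probe sets, 5498 had 1 yeast gene in the probe table. Names and coding lengths came from the R64 gene table, and each gene kept its probe set with the highest mean (47 genes had several). The study's level filter of 600, its fold limit and its adjusted p were used with limma 3.58.1 (lmFit, eBayes, two-sided, R 4.3.3). Applying the filter to the mean of the 4 arrays was a choice made here, and another passage of the study's methods gives a stricter p. The study reports far fewer altered genes, with more lower than higher, whereas 396 were called higher and 322 lower here. The reason for this difference was not tested. The RECQL5 arrays supply the 2 residual degrees of freedom, so WT cultures are taken to vary as much as RECQL5 cultures. The number of arrays limits the precision. The procedure was tested on simulated data in which the WT array was drawn with the spread of the RECQL5 arrays. That simulation cannot show how far a single WT culture may stray. Members, classes and lists were chosen with earlier results of these data known. All members are accounted for, and those called get every array's value. From the side lists at most 6 called genes that fell are named, beside all that rose. Sequences of promoters and proteins were not used here.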

Additional observations from a re-analysis of the deposited data

How the results depend on the processing

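The 8 falls and 2 rises were all called after cyclic loess, after median centring, with the mean of all probe sets, without shared probe sets, with a trended and robust spread, at an adjusted p of 0.05 and without RECQL5 replicate 2. Major genes stayed at 0 calls in each of these, and had 4 with no fold limit. *TDH1* was lost without replicate 3 and *SOL4* was not tested with the filter on every array. A filter on at least 1 array was added after the data were seen, and it and the filter on WT let 3 more members in through WT alone. *HXK1* (-0.65) and *PDC5* (0.60) were also called without replicate 1. With 1 replicate left out, 698 to 740 genes were called. With no fold limit, 2634 genes, 18 members lower and 6 higher were called. Cyclic loess moved the median of major genes to -0.18. It reversed the sign of *PDC1* (-0.0898), *GND1* (-0.0188) and *RPE1* (0.0043), whose change ran from -0.0706 to 0.032 with 1 RECQL5 replicate left out. None of these 3 is called. No paired analysis was possible because WT was 1 array and the labels mark no pairs. Levels near or below 9.23 and near the top of the scale limit what can be measured.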
